A study of Mus musculus with 12 samples.

Results

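Matrix metalloproteinases (Mmp) are zinc proteases that cut collagens, laminins and other components of the extracellular matrix, and the tissue inhibitors of metalloproteinases (Timp) bind and block them. The 10 genes described here are Mmp2, Mmp3, Mmp9, Mmp11, Mmp13 and Mmp14 together with Timp1, Timp2, Timp3 and Timp4, chosen by name from the 24060 gene rows measured in each of 12 mouse tumors. All 10 were detected at 1 RPKM or more in at least 6 tumors. RPKM scale each fragment count to the transcript length and to the fragment total of the tumor, so levels of different genes can be set side by side within a tumor.

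The tumors arose in P0-CreC;Smarcb1 flox/flox mice, in which the protein zero (P0) promoter drives Cre in neural crest cells and the Schwann cell lineage and deletes Smarcb1, a subunit of the SWI/SNF chromatin remodelling complex. They were labelled by location as retro-orbital (4 tumors), cheek (3), meninges (3), vestibular nerve (1) and trigeminal nerve (1). All carried the same genotype, no tissue with intact Smarcb1 was analysed here, and the labels give no age. The tumors were dissected whole, so each value averages tumor cells and every other cell in the piece, and fewer cells of a type cannot be told apart from less RNA per cell.

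Of the 12 sample identifiers, 6 share 3 prefixes, leaving 9 prefixes. The labels do not say what a prefix marks. Cheek 2 and cheek 3 share a prefix and deviated from the mean tumor in nearly the same way (r = 0.89 across genes), whereas cheek 1 and meninges 1 (r = 0.14) and retro-orbital 3 and the trigeminal nerve tumor (r = 0.21) did not. Cheek 2 and cheek 3 were not copies of each other, since Mmp9 differed between them (1069 and 750 fragments, or 10.3 and 17.9 RPKM). Between 13206168 and 57128422 fragments per tumor lay behind the values. Smarcb1, the targeted gene, ranged from 1.70 RPKM in the vestibular nerve tumor to 6.31 in meninges 3, and with no intact tissue beside it this level does not check the deletion.

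Most Mmp enzymes are secreted as inactive zymogens that another protease opens. MMP14 sits in the cell membrane and activates proMMP2 with TIMP2 as an adaptor, MMP3 activates proMMP9 and procollagenases, and MMP11 is activated inside the cell by furin. MMP2 and MMP9 are the gelatinases, which degrade denatured collagen and basement membrane type IV collagen, and MMP13 is a collagenase that cuts fibrillar collagen in bone and cartilage. TIMP1 inhibits secreted Mmp enzymes and is a weak inhibitor of MMP14, while TIMP3 is bound to the matrix and also inhibits Adam and Adamts proteases.

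Within this set of genes the summed inhibitors exceeded the summed proteases in most tumors, and 3 genes, Timp1, Mmp14 and Timp2, had the highest medians. Ordered by median over the 12 tumors, the levels were 199.8 RPKM for Timp1, 146 for Mmp14, 122 for Timp2, 58.0 for Timp3, 13.9 for Mmp2, 10.7 for Mmp9, 8.14 for Mmp3, 3.96 for Mmp13, 3.80 for Mmp11 and 1.19 for Timp4. Neighbours in this order were compared within tumors on the log2(RPKM + 1) scale with an exact two-sided sign-flip permutation test. The order came from these same tumors, and the exact p-values were not adjusted for the number of neighbouring pairs. Timp2 was above Timp3 in 9 of 12 tumors (mean difference 1.11 ± 1.29, SD, p = 0.011 by the exact test). Timp3 was above Mmp2 in 11 of 12 (1.92 ± 1.28, exact p = 0.0015). Mmp11 was above Timp4 in 8 of 12 (1.06 ± 1.40, exact p = 0.027), and the exact p was 0.074 with 1 tumor per identifier prefix. The other 6 neighbouring pairs did not differ beyond their spread (exact p from 0.20 to 0.92). They were the neighbours among Timp1, Mmp14 and Timp2 and among Mmp2, Mmp9, Mmp3, Mmp13 and Mmp11.

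Summed over the 4 genes, Timp RPKM exceeded the sum of the 6 Mmp genes in 10 of 12 tumors. The ratio of the Timp sum to the Mmp sum was highest in retro-orbital 4 (9.44) and retro-orbital 1 (6.92), close to 1 in retro-orbital 3 (1.04), meninges 3 (1.07) and meninges 2 (1.19), and below 1 in the vestibular nerve tumor (0.526) and cheek 1 (0.438). Mmp14 led the Mmp sum in 10 tumors, with 51.3% of it in retro-orbital 3 and 91.2% in meninges 3. In the other 2 tumors a different protease led, namely Mmp9 with 77.7% in retro-orbital 2 and Mmp13 with 54.9% in cheek 1. Timp1 led the Timp sum in 11 tumors and Timp3 in meninges 1 (51.5%). These sums leave out the 17 other Mmp genes, so the ratio and the leading protease hold for the 6 alone. In retro-orbital 1 Mmp10 was at 251 RPKM, above Mmp14 at 159.6. In meninges 2 Mmp23 and Mmp17 were at 54.3 and 36.4 RPKM, beside sums of 279 for Mmp and 334 for Timp.

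**Figure D1:**
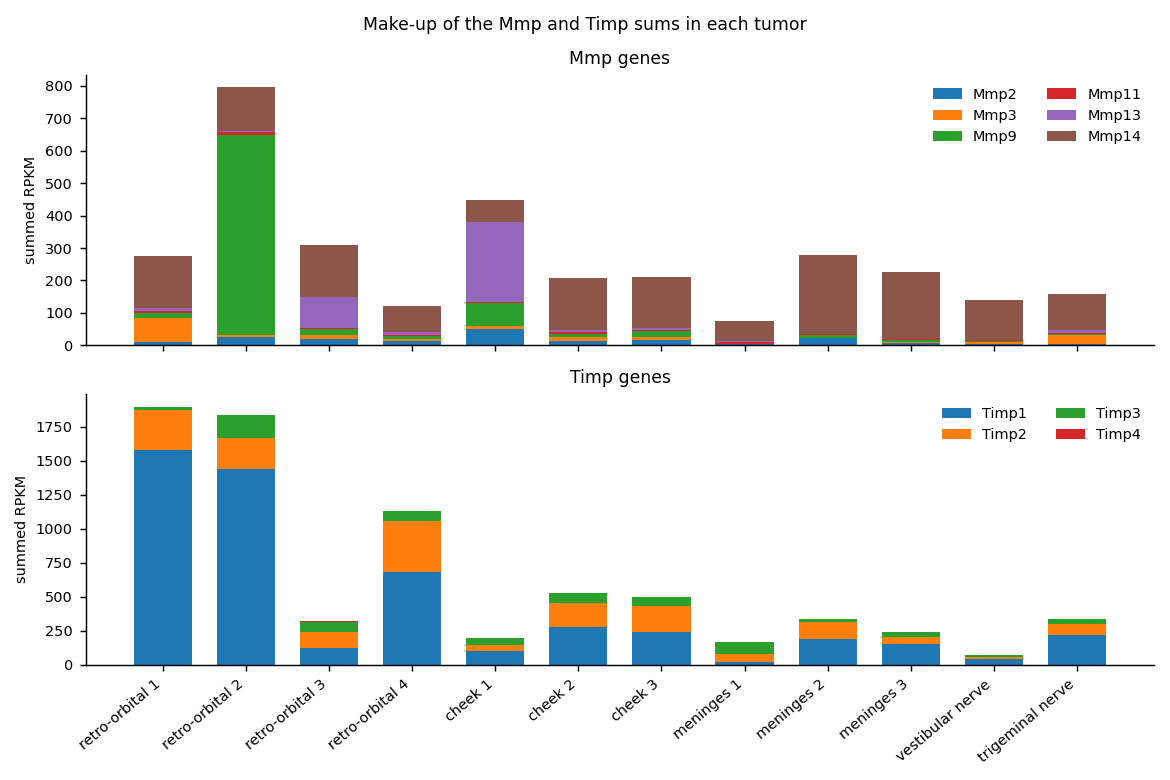
Stacked bars of RPKM for the 6 Mmp genes (upper panel) and the 4 Timp genes (lower panel) in each of the 12 tumors, on linear axes from 0 that differ between panels. Mmp14 fills most of the upper bars except in retro-orbital 2 (Mmp9) and cheek 1 (Mmp13), and Timp1 fills most of the tallest lower bars, in retro-orbital 1, 2 and 4.

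Mmp14, which encodes the membrane-bound activator of proMMP2, was the steadiest of the highly expressed members. Its level was 159.6, 136, 158 and 79.4 RPKM in the retro-orbital tumors, 69.6, 161 and 157 in the cheek tumors, 60.9, 243 and 206 in the meninges tumors, 121 in the vestibular nerve tumor and 112 in the trigeminal nerve tumor. The locations overlapped, and each of the 3 replicated ones held a tumor under 80 RPKM. The SD over the 12 tumors was 0.61 on the log2 scale. Mmp14 was above Timp2, its partner in proMMP2 activation, in 7 of 12 tumors, from 0.211-fold in retro-orbital 4 to 8.05-fold in the vestibular nerve tumor.

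Mmp2 encodes gelatinase A, the substrate of MMP14. It measured 11.4, 26.9, 19.1 and 13.4 RPKM in the retro-orbital tumors, 49.5, 14.4 and 14.8 in the cheek tumors, 2.74, 20.8 and 6.91 in the meninges tumors, 4.86 in the vestibular nerve tumor and 4.13 in the trigeminal nerve tumor. Cheek 1 was highest, and 1 of the 3 meninges tumors lay inside the range of the retro-orbital group.

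Mmp9, gelatinase B, varied 643-fold between its lowest and highest tumor. It measured 15.4, 618, 16.4 and 8.66 RPKM in the retro-orbital tumors, 72.4, 10.3 and 17.9 in the cheek tumors, 0.962, 11.0 and 4.58 in the meninges tumors, 4.01 in the vestibular nerve tumor and 4.37 in the trigeminal nerve tumor. Retro-orbital 2 alone held 78.8% of the summed Mmp9 RPKM and exceeded cheek 1, the next tumor, 8.54-fold. MMP9 is abundant in osteoclasts, the cells that resorb bone, and the osteoclast marker sum was highest in the same tumors. The 6 markers (Acp5, Ctsk, Ocstamp, Dcstamp, Atp6v0d2, Calcr) summed to 1329 RPKM in retro-orbital 2 and 269 in cheek 1, against 23.7 to 104 in the other 10 tumors. Among those 10 the lowest sum (23.7) was in retro-orbital 1, with Mmp9 at 15.4. Meninges 1, with the lowest Mmp9 (0.962), had a sum of 85.4, of which 59.0 was Calcr, with Ctsk at 2.27. In retro-orbital 2 Ctsk, the osteoclast collagen-degrading protease cathepsin K, was at 805 RPKM and Acp5, tartrate-resistant acid phosphatase, at 472. Calcr, the calcitonin receptor, went the other way in retro-orbital 2 (0.317 RPKM) and was at 47.2 in cheek 1. Dcstamp was listed at 0 in retro-orbital 3 and Ocstamp at 0 in the trigeminal nerve tumor. The macrophage sum was also highest in retro-orbital 2 (2173 RPKM, against 427 to 1831 in the others). The fibroblast marker sum was highest in cheek 1 (4088 RPKM) and retro-orbital 2 (3654), against 751 to 3104 in the others. The part of these cells in the Mmp9 level was not tested.

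Mmp13, the collagenase of bone and cartilage, was high in 2 tumors. It measured 7.49, 1.25, 98.1 and 8.49 RPKM in the retro-orbital tumors, 247, 3.92 and 3.99 in the cheek tumors, 0.965, 1.65 and 1.81 in the meninges tumors, 2.0 in the vestibular nerve tumor and 8.74 in the trigeminal nerve tumor. Cheek 1 held 64.1% of the summed Mmp13 RPKM, and cheek 1 and retro-orbital 3 were the sole tumors above 9 RPKM. The 8 bone and cartilage markers (Sp7, Ibsp, Bglap, Dmp1, Alpl, Col2a1, Col10a1, Matn1) summed to 227 RPKM in cheek 1, 123 in retro-orbital 1 and 91.3 in retro-orbital 3, against 3.07 to 52.4 in the other 9 tumors. Ibsp, bone sialoprotein, was at 189 RPKM in cheek 1 and 65.0 in retro-orbital 3 and at or below 0.920 in the other 10 tumors. Sp7 and Col2a1 went the other way, highest in meninges 1 (26.0 and 13.3 RPKM), where Mmp13 was lowest. They were at 8.93 and 1.35 RPKM in cheek 1 and at 5.19 and 0.491 in retro-orbital 3. Alpl was highest in cheek 1 (17.9 RPKM), with 10.7 in meninges 1 and 6.70 in retro-orbital 3. Bglap was listed at 0 in 4 tumors and Matn1 at 0 in 3, and Bglap reached 1.03 RPKM in cheek 1. The sum in retro-orbital 1 was mostly Dmp1 (120.4 RPKM), and Mmp13 there was 7.49. Whether bone within the dissected pieces set the Mmp13 level was not tested.

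Mmp3, stromelysin 1, was lowest in the meninges. It measured 72.6, 3.76, 14.0 and 6.29 RPKM in the retro-orbital tumors, 10.00, 10.7 and 11.8 in the cheek tumors, 0.747, 0.908 and 4.18 in the meninges tumors, 4.36 in the vestibular nerve tumor and 26.5 in the trigeminal nerve tumor. The cheek and meninges groups did not overlap, whereas retro-orbital 2 fell below meninges 3.

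Mmp3 and Mmp13 lie in the same gene cluster on chromosome 9 (GRCm38, plus strand, 7445822 to 7455975 and 7272514 to 7283331). Their promoter sequences are shown because both held the AP-1 motif TGANTCA, which the other 6 members with a RefSeq promoter record did not. AP-1 is the Fos and Jun transcription factor dimer. The search covered both strands of 250 bases before to 50 after each start, Mmp2 and Mmp9 had no record, and 7.81% of 32851 promoter records held the motif. In the lines below (GRCm38.p6, plus strand) the capitals mark the AP-1 motif, which begins 35 bases before the Mmp13 start and 46 before the Mmp3 start.
Mmp13, chr9:7272468-7272497: ccccaaagtggTGACTCAtcactatcatgc
Mmp3, chr9:7445765-7445794: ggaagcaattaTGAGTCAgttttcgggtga
The same 2 promoters held the TATA box motif TATAAA, which did not overlap the AP-1 motif and was present in 13.6% of promoter records. It began 16 bases before the Mmp13 start and 7 before the Mmp3 start.
Mmp13, chr9:7272486-7272515: tcactatcatgcTATAAAatagaagatgct
Mmp3, chr9:7445803-7445832: acacaaccactcTATAAAagttgggcttaa
The GC box GGGCGG showed the opposite distribution, with matches in Mmp11, Mmp14, Timp1, Timp2 and Timp3 (35.7% of promoter records) and none in Mmp3, Mmp13 or Timp4. A match is a string of letters in a window and no evidence of binding.

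Across the 12 tumors Mmp3 and Mmp13 were related in rank (Spearman's rho = 0.78, permutation p = 0.0037, 0.026 after Benjamini-Hochberg adjustment over 12 pairs) while their levels were not detectably related (Pearson's r = 0.45 on the log2 scale, permutation p = 0.15, adjusted p = 0.59). Pearson's r was 0.51 without retro-orbital 1 and meninges 1, the tumors farthest from the Mmp3 median. The call in rank was lost with 1 tumor per identifier prefix (adjusted permutation p = 0.12). It was also lost without retro-orbital 2, cheek 2, cheek 3, any 1 of the meninges tumors or the vestibular nerve tumor (adjusted permutation p from 0.056 to 0.101).

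Mmp11, stromelysin 3, varied 6.38-fold between its lowest and highest tumor. It measured 7.54, 9.72, 2.50 and 3.66 RPKM in the retro-orbital tumors, 1.52, 6.81 and 3.94 in the cheek tumors, 7.13, 1.68 and 2.45 in the meninges tumors, 2.15 in the vestibular nerve tumor and 4.20 in the trigeminal nerve tumor. The groups overlapped throughout. Mmp11 is the neighbour of Smarcb1 on chromosome 10 (75923222 to 75936496 against 75896769 to 75921617, GRCm38, both on the minus strand), 1605 bases apart. No relation between their levels was detected across the tumors (r = -0.04, permutation p = 0.90, rho = -0.16, permutation p = 0.62, adjusted p = 0.95 and 0.83, and r = -0.07 without retro-orbital 2 and cheek 1). Exons of Mmp11 overlap Chchd10 on the opposite strand. The libraries were stranded, but whether the counting used strand is not stated, so fragments of overlapping genes on opposite strands may not have been told apart.

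Timp1 spanned 86.1-fold and was highest in 3 of the 4 retro-orbital tumors. It measured 1579, 1438, 125 and 681 RPKM in the retro-orbital tumors, 101, 277 and 241 in the cheek tumors, 18.3, 184 and 154 in the meninges tumors, 40.4 in the vestibular nerve tumor and 215 in the trigeminal nerve tumor. Retro-orbital 1, 2 and 4 were above every other tumor, and retro-orbital 3 fell inside the range of the cheek and meninges groups. Timp1 lies within Syn1 on chromosome X, on the opposite strand and with no overlap of annotated exons, and no relation between their levels was detected (r = -0.02, permutation p = 0.95, rho = 0.01, permutation p = 0.99, adjusted p = 0.95 and 0.99, and r = 0.14 without retro-orbital 1 and meninges 1).

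Timp2, the adaptor of proMMP2 activation, showed a like pattern over a smaller range. It measured 292, 231, 113 and 377 RPKM in the retro-orbital tumors, 41.3, 175 and 190.2 in the cheek tumors, 60.7, 132 and 46.8 in the meninges tumors, 15.1 in the vestibular nerve tumor and 83.4 in the trigeminal nerve tumor. Retro-orbital 1, 2 and 4 were again above all others. Timp1 and Timp2, a pair picked after seeing the values, had r = 0.80 over the 12 tumors, as a description.

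Timp3, the matrix-bound inhibitor, measured 25.7, 165, 78.1 and 74.5 RPKM in the retro-orbital tumors, 54.2, 75.4 and 61.9 in the cheek tumors, 86.6, 15.2 and 35.4 in the meninges tumors, 15.7 in the vestibular nerve tumor and 34.0 in the trigeminal nerve tumor. Retro-orbital 2 stood highest, and the groups overlapped. Timp3 lies within Syn3 on the opposite strand of chromosome 10 with overlapping exons, and no relation was detected (r = -0.17, permutation p = 0.60, rho = -0.03, permutation p = 0.92, adjusted p = 0.78 and 0.99, and r = -0.26 without meninges 2 and the vestibular nerve tumor).

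Timp4 was the lowest member and divided the tumors in 2 sets. It measured 0.130, 0.384, 4.61 and 0.120 RPKM in the retro-orbital tumors, 0.149, 0.563 and 0.214 in the cheek tumors, 2.52, 2.28 and 4.92 in the meninges tumors, 1.81 in the vestibular nerve tumor and 5.57 in the trigeminal nerve tumor. No tumor lay between 0.563 and 1.81 RPKM. The values rested on 4 to 373 fragments, so those of the lower 6 tumors are imprecise. All meninges tumors were above all cheek tumors, and retro-orbital 3 stood with the meninges tumors. Timp4 is known for its expression in brain and heart. The 4 astrocyte and glia markers (Gfap, Aqp4, Mbp, Mog) summed to 56.3 to 367 RPKM in the 6 tumors with high Timp4 and to 2.56 to 34.1 in the other 6. By location the sum was 104 to 367 in the meninges tumors, 9.34 to 17.7 in the cheek tumors and 2.56 to 257 in the retro-orbital tumors, and no marker was at 0. The part of glia in the Timp4 level was not tested.

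Timp4 lies within Syn2 on chromosome 6, on the opposite strand and with overlapping annotated exons, so their fragments may not have been told apart. Syn2, a synaptic vesicle gene, ranged from 0.0301 to 0.326 RPKM in the 6 tumors with low Timp4 and from 0.552 to 1.84 in the 6 with high Timp4. Since the sets were separate in both genes, no correlation over all 12 tumors is given. Within the sets, which were split at the gap in Timp4 itself, the relation was not detectable with 6 tumors each. In the lower set r was 0.42 (exact permutation p = 0.41, adjusted p = 0.82) and rho 0.26 (exact p = 0.66, adjusted p = 0.92), and in the higher set r was 0.11 (exact permutation p = 0.86, adjusted p = 0.86) and rho -0.09 (exact p = 0.92, adjusted p = 0.92). Without the 2 tumors farthest from the median Timp4 level of each set, r was 0.92 and 0.41, over 4 tumors each.

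**Figure D2:**
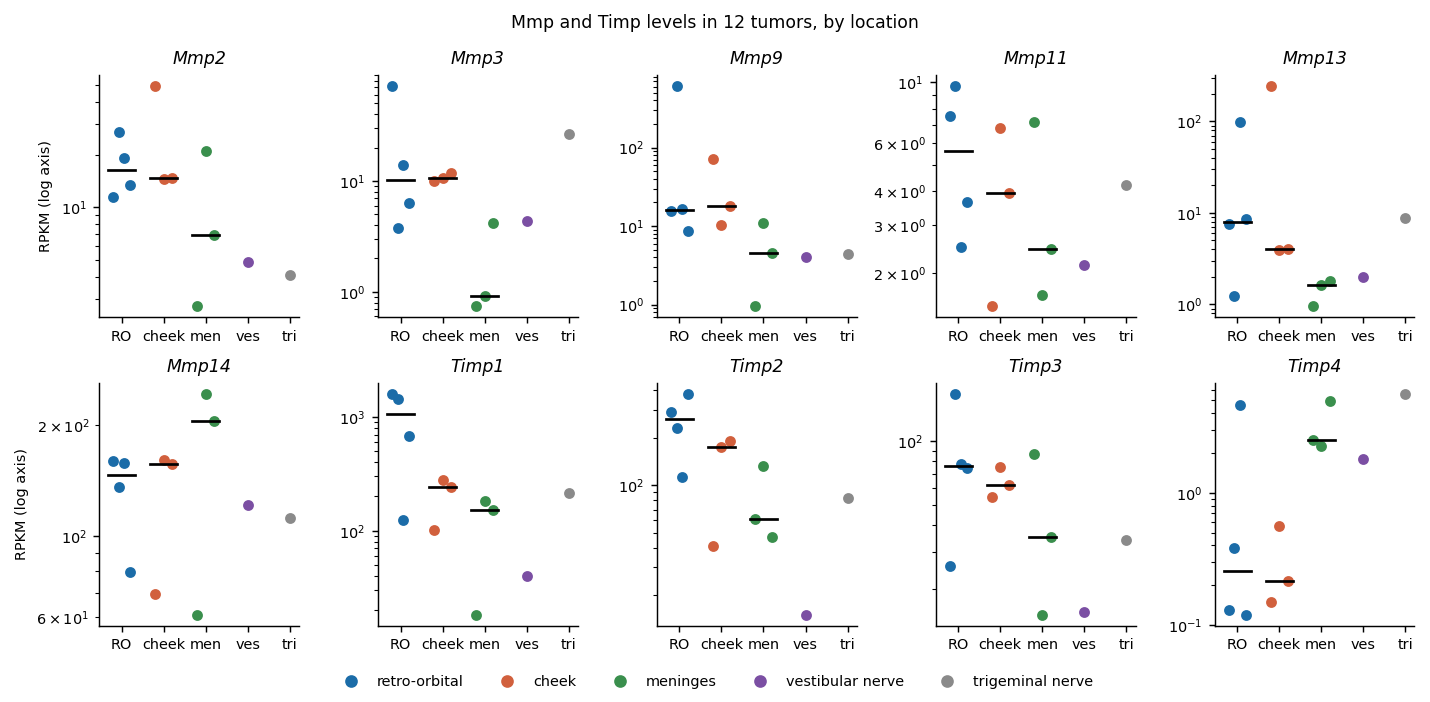
RPKM on a log axis for each of the 10 genes, 1 point a tumor, grouped by location (RO, retro-orbital, 4 tumors; cheek, 3; men, meninges, 3; ves, vestibular nerve, 1; tri, trigeminal nerve, 1), with the median of each replicated group as a black line. The groups overlap in most panels, Mmp9 in retro-orbital 2 stands at 618 RPKM, and the meninges points of Mmp3 and Timp4 lie below and above all cheek points.

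To ask whether the members differed by location, log2(RPKM + 1) of 14745 genes was fitted with limma over the 10 retro-orbital, cheek and meninges tumors. No member passed the moderated F test over the locations after Benjamini-Hochberg adjustment, and 0.0407% of all genes did (6 of 14745). At an unadjusted p under 0.05 there were 3 members (Mmp3, Timp1 and Timp4), against 14.3% of all genes. The unadjusted limma p was 0.033 for Mmp3 (adjusted p = 0.33), 0.040 for Timp1 (adjusted p = 0.34), 0.047 for Timp4 (adjusted p = 0.34) and 0.058 for Timp2 (adjusted p = 0.36). Exact permutation of the location labels gave p = 0.064, 0.080, 0.083 and 0.12 for these genes, and 0.22 to 0.87 for the other 6. Leaving out 1 tumor at a time, Timp4 came nearest to the threshold when retro-orbital 3 was left out (limma adjusted p = 0.078 for the F test).

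In group mean, 8 of the 10 members were lower in the meninges than in the retro-orbital tumors, as were 5344 of all 14745 genes. The median member difference was -1.35 on the log2(RPKM + 1) scale, against 0.13 over all genes tested. Timp1 differed by -3.02 ± 1.01 (SE, limma adjusted p = 0.49), Mmp9 by -2.83 ± 1.37 (adjusted p = 0.56), Mmp3 by -2.44 ± 0.82 (adjusted p = 0.49) and Timp2 by -1.67 ± 0.61 (adjusted p = 0.51). Mmp14 (0.18 ± 0.51) and Timp4 (1.21 ± 0.55, limma adjusted p = 0.55) lay above. At an unadjusted p under 0.05 there were 3 members (Timp1, Mmp3 and Timp2), against 9.14% of genes. None was called after adjustment, against 0.0203% of genes, and 0 of 10 members had groups that did not overlap, against 9.23% of genes. Without meninges 1, which held the lowest level of Mmp2, Mmp3, Mmp9, Mmp13, Mmp14 and Timp1, the differences of Timp1, Mmp9 and Mmp3 were -1.97, -2.14 and -2.15. The Mmp9 difference was -1.46 without retro-orbital 2 and the Mmp3 difference -1.64 without retro-orbital 1, the tumor with the highest level of each gene.

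Between cheek and retro-orbital tumors the median member difference was -0.34 (all genes -0.02), none was called (0.0271% of genes) and 0 of 10 did not overlap (11.1% of genes). Timp1 differed most, by -1.81 ± 1.01 (SE, limma adjusted p = 0.50). Between cheek and meninges, 8 of 10 members were higher in group mean in the cheek tumors (median 1.0, all genes -0.16), as were 5622 of 14745 genes. Mmp13 was higher by 2.90 ± 1.62, Mmp9 by 2.30 ± 1.46 and Mmp3 by 2.19 ± 0.88 (limma adjusted p = 0.38, 0.44 and 0.26). Without cheek 1, the tumor with 247 RPKM of Mmp13, the differences of Mmp13 and Mmp9 were 1.02 and 1.52. Timp4 was lower by 1.66 ± 0.59 (log2 difference -1.66, limma adjusted p = 0.23). None was called (0.0475% of genes), and 3 of 10 did not overlap (Mmp3, Mmp13 and Timp4), close to the 28.7% of all genes that did not. The 3 contrasts share tumors and are not independent of one another.

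This outcome depended on how the shared identifiers were handled. With the identifier prefix as a random block, limma estimated a correlation of 0.93 within prefixes, and 7 of the 10 members passed the F test (Mmp2, Mmp3, Mmp9, Mmp11, Mmp13, Timp1 and Timp4) together with 19.0% of all genes. The same 7 were called between cheek and meninges, with 28.8% of all genes, and none was called in the contrasts with the retro-orbital tumors (0.0136% and 0.0203% of genes). In the fitted tumors just 2 pairs share a prefix, the like cheek 2 and cheek 3 and the unlike cheek 1 and meninges 1. With cheek 2 and cheek 3 averaged as 1 tumor, no gene was called in any of the 4 tests.

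**Figure D3:**
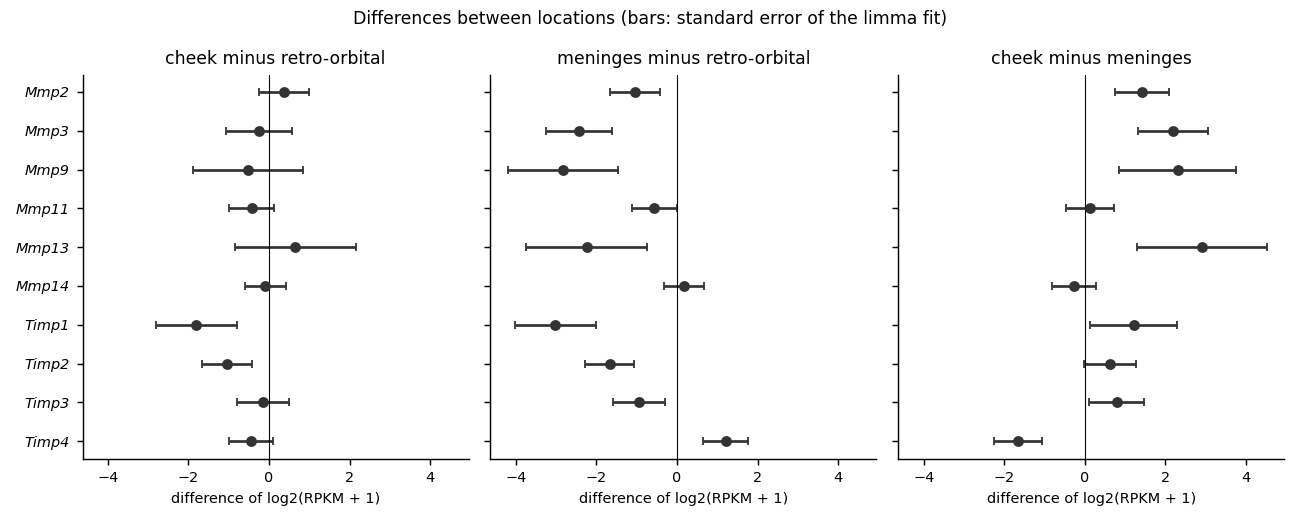
Differences in log2(RPKM + 1) between locations for the 10 genes, with bars of 1 standard error from the limma fit over 10 tumors without a block. Timp1 (-3.02), Mmp9 and Mmp3 lie farthest below 0 in the meninges against the retro-orbital tumors, and no difference passed the adjusted threshold.

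The members varied more between single tumors than most genes did. The SD of log2(RPKM + 1) over the 12 tumors had a median of 1.21 over the 10 members and 0.478 over 15043 genes (those reaching 1 RPKM in 3 or more tumors). All 10 members were above the latter, and 5 were above its 90th percentile of 1.13 (Mmp13 with 2.20, Mmp9 with 2.14, Timp1 with 1.87, Mmp3 with 1.52 and Timp2 with 1.33). For Mmp13, 99.2% of genes had a smaller SD. The members were chosen with earlier results of these data known, and the genes were not matched for level, so the larger spread is a description.

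Of the 12 pairs of genes compared across the 12 tumors, the enzyme and inhibitor pair Mmp9 and Timp1 came closest among those not yet described (r = 0.59, permutation p = 0.043, adjusted p = 0.26, rho = 0.43, permutation p = 0.16, adjusted p = 0.65, and r = 0.71 without retro-orbital 2 and cheek 1). The components of the proMMP2 activation complex were not detectably related. Pearson's r was 0.15 for Mmp2 and Mmp14, 0.34 for Mmp2 and Timp2 and 0.18 for Mmp14 and Timp2 (permutation p = 0.65, 0.29 and 0.58, each with adjusted p = 0.78). Spearman's rho was 0.22, 0.24 and 0.20 (permutation p = 0.49, 0.44 and 0.53, each with adjusted p = 0.83). Without cheek 1 and meninges 1 their r was 0.27, 0.66 and -0.15. No relation was detected between Mmp9 and Ptprc, the pan-leukocyte marker CD45 (r = 0.21, permutation p = 0.53, rho = 0.10, permutation p = 0.77, adjusted p = 0.78 and 0.92, r = 0.09 without retro-orbital 2 and cheek 1). The same held for Mmp2 and Col1a1, a fibrillar collagen gene (r = 0.18, permutation p = 0.58, rho = 0.17, permutation p = 0.60, adjusted p = 0.78 and 0.83, r = -0.21 without cheek 1 and meninges 1). Mmp9 and Mmp13 had r = 0.24 (permutation p = 0.42, rho = 0.29, permutation p = 0.36, adjusted p = 0.78 and 0.83), r = 0.54 without retro-orbital 2 and cheek 1, and r = 0.77 (permutation p = 0.0033, adjusted p = 0.020) without retro-orbital 2 alone, while r was -0.0028 without cheek 1. That relation rests on these 2 tumors.

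**Figure D4:**
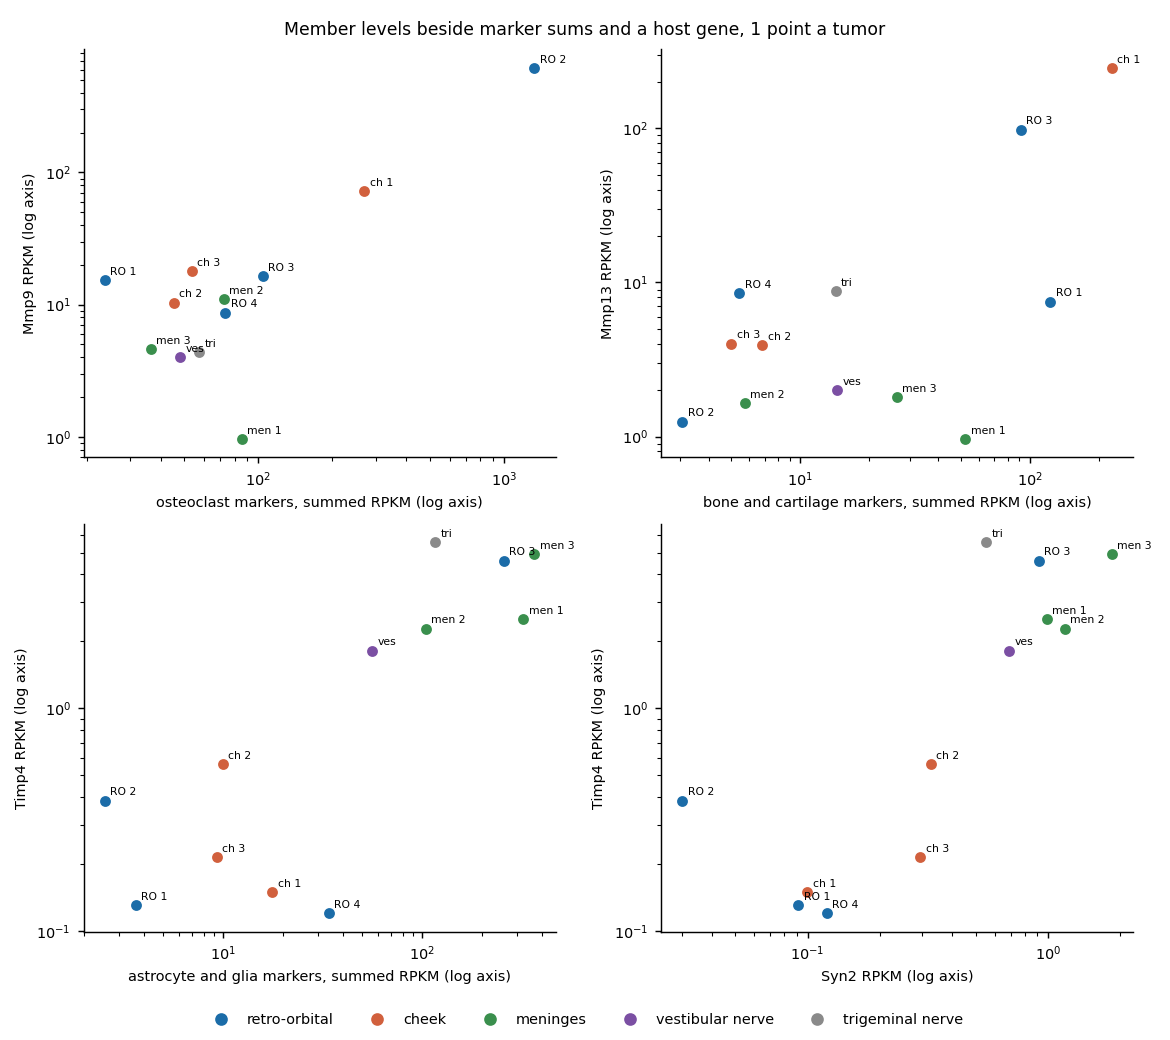
Scatter of 4 pairs of levels over the 12 tumors, 1 labelled point a tumor, all on log axes in RPKM. Mmp9 is plotted against the osteoclast marker sum (retro-orbital 2 at 618 and 1329), Mmp13 against the bone and cartilage sum (cheek 1 at 247 and 227, retro-orbital 3 at 98.1 and 91.3), Timp4 against the astrocyte and glia sum, and Timp4 against Syn2, where the tumors form a lower and a higher set of 6 each.

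The genes whose levels followed each member most closely were ranked by Pearson's r of log2(RPKM + 1) over the 12 tumors, as a description that rests for some members on single tumors. For Mmp9 they were Ctsk (r = 0.91, 0.80 without retro-orbital 2), Slc9b2 (0.90, 0.69) and Tm4sf19 (0.89, 0.67). For Mmp13 they were Gpx3, Osr2 and Ltf (each 0.89, and 0.76 to 0.85 without cheek 1), for Mmp2 Tnn (0.86), Fibp (0.82) and Man1a (0.81), and for Mmp3 Zyx (0.92), Slc35b3 (0.91) and Fkbp1a (0.88). Timp2 had the closest followers, namely BC100451 (0.98), Vat1 (0.97) and Arpc1b (0.93). For Timp1 they were Tspo, Hmga2-ps1 (both 0.91) and Wnt2 (0.90), for Timp3 Ralgds (0.88), Igfbp6 and Anpep (both 0.87), for Mmp11 Prkd3 (0.84), Zak (0.82) and D030056L22Rik (0.81), and for Mmp14 Samd14 (0.88), 3010001F23Rik (0.87) and Leprel2 (0.82). Timp4 was followed by Kndc1 (0.95), Ncan (0.94) and Pcsk1n (0.94), across the gap between its 2 sets of tumors.

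The wider protease system was examined in 5 lists of genes. No listed gene passed the F test over the locations, and the shares at an unadjusted p under 0.05 were 2 of 10 for other Mmp genes, 5 of 19 for Adam and Adamts proteases, 5 of 21 for activators, receptors and other inhibitors, 2 of 20 for transcription factors and cytokines that act on Mmp promoters and 3 of 12 for substrates, against 14.3% of all genes. Among the other Mmp genes Mmp23, Mmp19, Mmp16 and Mmp12 had the highest medians (7.37, 4.78, 3.83 and 3.68 RPKM), below those of 7 of the members, and 7 of the 17 were not tested for low levels. Mmp12, macrophage elastase, was highest in retro-orbital 4 (39.7 RPKM) and retro-orbital 3 (32.6) (limma adjusted p = 0.18). Adam10 (median 46.1 RPKM), Adam9 (32.3), Adamts1 (27.2) and Adam17 (26.6) led the Adam and Adamts list, of which Adam10, the alpha-secretase and Notch sheddase, ranged from just 37.1 to 53.2.

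Among the activators and receptors Bsg, the Mmp inducer basigin, had a median of 198 RPKM and reached 978 in meninges 1, the tumor with the lowest level of 6 members. Lrp1, which clears Mmp and Timp complexes, Itgav and Furin, which cleaves the propeptides of MMP14 and MMP11, had medians of 62.3, 56.9 and 49.8 RPKM. The AP-1 genes Junb, Jun and Jund led the transcription factor list (61.8, 46.2 and 39.8 RPKM), followed by Nfkb1 (32.7). All 20 genes of that list were lower in the meninges than in the retro-orbital tumors, by a median of 0.47 (log2 difference -0.47), and none was called, while 5344 of all 14745 genes were lower. The substrates Col1a2, Sparc, Col3a1 and Col1a1 had medians of 655, 630.2, 603 and 218 RPKM. Col3a1, which encodes type III collagen, was higher in the cheek than in the retro-orbital tumors (1648, 2207 and 1530.4 RPKM against 499.5, 356, 435 and 291), by 2.19 ± 0.27 (SE, limma adjusted p = 0.044). This was the 1 call in the lists. It was lost with cheek 2 and cheek 3 averaged (limma adjusted p = 0.25), with the identifier prefix as a random block (0.30), with no filter on low values (0.082), after quantile normalization (0.058) and with a plain prior variance (0.059). It was also lost without cheek 2 (limma adjusted p = 0.40), cheek 3 (0.21), retro-orbital 2 (0.12), retro-orbital 3 (0.10), retro-orbital 4 (0.16) or meninges 2 (0.067).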

How the data were processed

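Total RNA of 12 frozen tumors was sequenced from rRNA-depleted TruSeq Stranded libraries in 1 pool. The authors aligned reads to mm10 with STAR, kept unique alignments, used HTSeq for fragment counts over RefSeq genes, and deposited RPKM, 1 value per gene in each tumor. The submitters' processing notes also name bcl2fastq 2.17, edgeR and limma. Fragment totals (median 27929720) were worked out from the spacing of the lowest RPKM, with lengths from GENCODE M21 (a value counted as whole within 0.05 fragments). The RPKM were taken as deposited, and 27 rows with a date in place of a symbol were never named.

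Levels were tested as log2(RPKM + 1) with limma 3.58.1 in R 4.3.3 (trended, robust prior variance) over genes reaching 1 RPKM in 3 or more fitted tumors. The pseudocount understates changes of low genes. Adjustment, where given, was Benjamini-Hochberg at 0.05. The exact p-values of the order of levels and of the location labels were not adjusted. Nothing says that tumors came from separate mice, so p-values measure the spread between these tumors, which may share a mouse. The vestibular and trigeminal nerve tumors, with 1 each, were not tested for location. Correlations used two-sided permutation tests with 100000 resamples, and other permutation tests were exact. The script was tested on simulated data of the location F test (14745 genes), with independent noise between tumors. Changes were planted in the meninges, in genes with a mean log2 level above 3. The script recovered 73 of 100 genes changed by 2 and 91 of 100 changed by 4 on the log2 scale, with 12 of 176 calls false. Recovery for lower or more variable members was not tested.

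Named genes were the members, their fixed partners, in each list the 4 genes with the highest medians and those past the threshold, overlapping genes, and the 3 genes most correlated with each member. Members and lists were chosen with earlier results of these data known. Adgre1 and Ly6g of the marker lists had no row, and 1 glia marker is not reported here. Alternatives were other pseudocounts, filters, scalings and prior variance, all 12 tumors in the fit, the identifier prefix as a block, and leaving out each tumor.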

Additional observations from a re-analysis of the deposited data

Results flagged for a closer look

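Among the retro-orbital tumors, the group of 4, the 10 members were screened for a tumor standing apart on the log2(RPKM + 1) scale, by its gap to the nearest other tumor divided by the whole range, against Dixon's critical value. Chance marks about 1 in 20 such groups. Mmp9 in retro-orbital 2 stood apart with a gap of 0.858 of the range (618 RPKM against 8.66 to 16.4), beside the highest osteoclast and macrophage marker sums. Timp4 in retro-orbital 3 stood apart with a gap of 0.868 (4.61 RPKM against 0.120 to 0.384), beside an astrocyte and glia sum of 257 RPKM against 2.56 to 34.1 in the other 3. The part of these cells in either value was not tested.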

How the results depend on the processing

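No member was called under the other pseudocounts, filters, scalings and prior variance tried, with all 12 tumors, or without any 1 of the 10 fitted tumors. With the identifier prefix as a random block, 7 members were called over the locations and 7 between cheek and meninges, and 2802 and 4243 genes. No paired analysis was possible because the labels give no replicate numbers that locations share, so the block used the prefixes. Genes called over the locations numbered 10 with no filter, 19 with a plain prior variance and 0 with cheek 2 and 3 averaged (chosen after seeing the data), and 0 (without cheek 2, cheek 3 or meninges 1) to 198 (without cheek 1). Genes called in cheek against retro-orbital numbered 2 with no filter, 2 with the block, 0 with the averaging and 0 to 147 without 1 tumor. In meninges against retro-orbital they numbered 7 with no filter, 6 with the plain prior, 0 with the averaging and 0 to 41 without 1 tumor. In cheek against meninges they numbered 18, 22, 0 and 0 to 527 in the same order, with 2 at a pseudocount of 0.1 and 13 after quantile normalization. Differences that turned in sign were uncalled, except Mmp11 under the block. Under the block, cheek minus retro-orbital became 0.064 for Mmp3, 1.2 for Mmp9 and 0.29 for Mmp14, and cheek minus meninges -1.44 for Mmp11 (-0.073 with the averaging), 0.10 for Mmp14, -0.41 for Timp2 and -0.46 for Timp3. Without 1 tumor, cheek minus retro-orbital ranged from -0.19 to 0.66 for Mmp2, -0.76 to 0.55 for Mmp3, -1.30 to 0.84 for Mmp9, -1.22 to 1.69 for Mmp13, -0.32 to 0.30 for Mmp14, -0.64 to 0.24 for Timp3 and -0.67 to 0.11 for Timp4. Meninges minus retro-orbital ranged from -0.19 to 0.80 for Mmp14, and cheek minus meninges from -0.26 to 0.60 for Mmp11 and -0.89 to 0.13 for Mmp14. With 1 tumor per prefix, r was -0.34 for Mmp2 and Mmp14 and -0.065 for Mmp2 and Col1a1. With the same RPKM sum, it was 0.0081 for Mmp11 and Smarcb1 and 0.010 for Timp1 and Syn1. Without 1 tumor, r ranged from -0.20 to 0.55 for Mmp2 and Mmp14, -0.0028 to 0.77 for Mmp9 and Mmp13, -0.040 to 0.29 for Mmp9 and Ptprc, -0.16 to 0.29 for Mmp2 and Col1a1, -0.33 to 0.069 for Mmp11 and Smarcb1, -0.10 to 0.092 for Timp1 and Syn1 and -0.31 to 0.084 for Timp3 and Syn3. In the order of levels, means over tumors gave -0.079 for Mmp14 over Timp2, -1.99 for Mmp2 over Mmp9 and -1.16 for Mmp3 over Mmp13, and 1 tumor per prefix gave -0.10 for Mmp3 over Mmp13 and 1.09 for Mmp11 over Timp4, which no longer passed the threshold. The cause was not tested, except that fewer tumors enter the averaged and left-out fits. Timp4, with 4 fragments in cheek 3, is limited by depth.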

Other observations

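Retro-orbital 1 held high levels of several genes of the Mmp cluster on chromosome 9, which were chosen after their values were seen. Mmp10, stromelysin 2, was at 251 RPKM there, 13.1-fold above the next tumor, the trigeminal nerve tumor with 19.1, and at 0.386 to 8.36 in the other 10. Mmp1a, which the GENCODE M21 annotation types as a polymorphic pseudogene, and Mmp1b were at 86.6 and 16.4 RPKM in retro-orbital 1. Cheek 1 was next at 6.88 and 1.66, and Mmp1a was at or below 0.659 in the other 10 tumors. Mmp3, in the same cluster, was highest in retro-orbital 1 as well (72.6 RPKM), while Mmp13 at its edge was not (7.49) and Mmp12 was at 10.2. Mmp8 and Mmp27, also in the cluster, were low in retro-orbital 1 (0.196 and 0.156 RPKM). Mmp3 and Mmp10 are close paralogs, as are Mmp1a and Mmp1b. The authors kept uniquely mapped reads, and how reads were divided among these paralogs was not tested.

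Keratinocyte markers (Krt5, Krt14, Krt1) summed to 464 RPKM in cheek 3 and 336 in meninges 1, against 0.295 to 147 in the others, and neuron markers to 529 and 428 RPKM in cheek 2 and cheek 3, against 16.4 to 49.5 in the other 10 tumors. Neutrophil markers summed to 265 RPKM in retro-orbital 3 and 109 in cheek 3, and to 4.88 to 64.4 in the others. Skeletal muscle markers ranged from 10.00 to 428 RPKM, fibroblast markers from 751 to 4088 and endothelial markers up to 83.7. Pericyte markers ranged from 20.3 to 284 and Schwann cell markers from 4.31 to 36.3. Genes of proteins stained in the study (Smarcb1, Vim, Acta2, Fabp7) summed to between 130.1 in the vestibular nerve tumor and 3060 in retro-orbital 1. Among these Smarcb1 is no positive marker, since the paper reports its staining lost from tumor cells and kept in inflammatory and endothelial cells.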
